A study of Mus musculus with 23 samples.

Results

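The 9 genes described here, Msx1, Pax9, Barx1, Lhx6, Lhx8, Prrx1, Prrx2, Twist1 and Twist2, encode transcription factors known from the mesenchyme of the developing tooth. They were taken by symbol from a table of 54347 genes, all 9 were found, all 9 passed the filter on low counts over both batches, and 8 of the 9 passed it in batch A alone, where Lhx6 was too low. RNA was measured in 23 libraries of sorted cells, made by Smart-seq2, a full-length cDNA method for small inputs. The cells came from the labial cervical loop of the lower incisor, the bud-like fold at the growing end of the tooth, at postnatal day 2. All groups share 1 mouse line, Sox2-GFP, in which the endogenous Sox2 promoter drives green fluorescent protein, and no other allele or treatment is given in the labels. Fluorescent cells were sorted as Sox2-positive, the dental epithelial stem cells of the labels, and the other cells of the dissected region as Sox2-negative. Batch A gave 6 Sox2-negative and 6 Sox2-positive libraries, batch B gave 4 and 7, and the batches were separate days with different mice. The labels do not say whether libraries of 1 batch came from separate mice, so n counts libraries and p-values measure the spread between libraries, which may be technical. The comparison asks how far each factor is restricted to the cells outside the Sox2-positive sort, and whether that holds in both batches.

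Teeth form from an epithelium that lies on mesenchyme derived from cranial neural crest, and each layer signals to the other. Msx1, a homeobox factor, and Pax9, a paired-box factor, act in the mesenchyme of the early tooth germ, where both are needed for expression of Bmp4, a signal back to the epithelium. Lhx6 and Lhx8 are LIM-homeodomain factors of the jaw mesenchyme that respond to epithelial fibroblast growth factors, and Barx1 is a homeobox factor best known from the molar region. Prrx1 and Prrx2 are paired-related homeobox factors of limb, skull and jaw mesenchyme. Twist1 and Twist2 are basic helix-loop-helix factors that bind DNA as dimers, among others with the E proteins encoded by Tcf3, Tcf4 and Tcf12. Lhx6 transcripts have also been described in dental epithelium.

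Promoter sequence is shown for the pair that differed most in the sort, Lhx6 and Lhx8, for both Twist genes, which had no count in any Sox2-positive library, and for Prrx1, which fell in the sort and differed between batches. All 9 genes matched the RefSeq table of promoters (GRCm38.p6, the build called mm10). Each window holds the bases before the RefSeq start, cut where needed so that it also ends before the start of the gene in GENCODE M21. Letters in capitals mark a match, on either strand, to 1 of 5 short motifs. The homeodomain core searched was TAATTA. E-boxes, the sites that helix-loop-helix factors bind, were searched as CAGCTG and, in a search of its own, as CATATG. The TATA box was searched by the letters TATAAA, and the SOX core by the letters AACAAT. None of these motifs overlaps another in the windows shown. The windows lie at chr2:36105409-36105658 (Lhx6, minus strand), chr3:154330660-154330810 (Lhx8, minus strand), chr12:33957421-33957670 (Twist1, plus strand), chr1:91801211-91801460 (Twist2, plus strand) and chr1:163313711-163313900 (Prrx1, minus strand).
Lhx6: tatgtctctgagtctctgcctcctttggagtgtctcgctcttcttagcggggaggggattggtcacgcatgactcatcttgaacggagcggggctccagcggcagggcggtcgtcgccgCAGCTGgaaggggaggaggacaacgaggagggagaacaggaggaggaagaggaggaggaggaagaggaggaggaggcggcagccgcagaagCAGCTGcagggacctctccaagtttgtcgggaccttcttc
Lhx8: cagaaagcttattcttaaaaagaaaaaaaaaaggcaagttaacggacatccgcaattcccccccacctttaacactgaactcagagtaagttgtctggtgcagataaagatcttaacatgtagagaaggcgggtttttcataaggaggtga
Twist1: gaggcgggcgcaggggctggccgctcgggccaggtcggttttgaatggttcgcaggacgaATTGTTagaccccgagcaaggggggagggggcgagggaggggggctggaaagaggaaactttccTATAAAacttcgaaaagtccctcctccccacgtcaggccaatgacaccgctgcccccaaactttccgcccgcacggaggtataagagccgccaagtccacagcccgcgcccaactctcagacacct
Twist2: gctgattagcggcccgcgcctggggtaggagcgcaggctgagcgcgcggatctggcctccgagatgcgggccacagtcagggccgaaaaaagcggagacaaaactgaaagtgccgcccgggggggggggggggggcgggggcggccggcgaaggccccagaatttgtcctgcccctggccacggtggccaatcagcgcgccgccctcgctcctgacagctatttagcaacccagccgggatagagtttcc
Prrx1: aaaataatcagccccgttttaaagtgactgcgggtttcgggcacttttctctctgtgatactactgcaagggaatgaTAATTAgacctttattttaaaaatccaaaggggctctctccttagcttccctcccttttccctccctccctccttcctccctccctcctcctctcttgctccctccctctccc

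The Lhx6 window shown, number 1 of 3 in RefSeq, held 2 CAGCTG E-boxes, 131 and 40 bases before its RefSeq start. Windows 2 and 3 of Lhx6 lie inside the gene in GENCODE and are not shown, and number 3 held a SOX core 12 bases before its own start. The shorter Lhx8 window held no match. Of 32851 promoter windows of 250 bases, 13% held CAGCTG. Twist1 had TATAAA 126 bases and ATTGTT, the SOX core read on the other strand, 190 bases before its start, while the Twist2 window held none of the motifs. Over all windows 12.4% held a TATA box and 9.42% a SOX core. Prrx1 had 1 TAATTA, 173 bases before its start, a motif found in 4.84% of windows, and CATATG, found in 3.46%, was in none of the 5. These matches describe letters only. In base composition the full windows ran from 46% G and C for Lhx8 and 47.6% for Prrx1 to 61.6% for Lhx6, 62.4% for Twist1 and 68.8% for Twist2.

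Library totals ran from 2305778 to 9541443 estimated counts, and 3 counts, taken as the floor of detection, equalled 0.340 to 1.27 CPM (the count scaled to a common library total with TMM factors). These floors, and the counting intervals below, cover counting error only. Sox2 itself lay between 2.60 and 21.5 CPM in the 13 Sox2-positive libraries, and in the 10 Sox2-negative libraries it had counts in 2, at most 1.13 CPM. Epithelial markers summed to 4171 ± 122 CPM (SD, n = 6) and 5873 ± 847 CPM (n = 7) in the Sox2-positive libraries of batch A and batch B, against 226.5 ± 39.7 and 417 ± 12.5 CPM in Sox2-negative libraries (n = 6 and 4). Mesenchymal markers summed to 13700 ± 815 and 13750 ± 1984 CPM in Sox2-negative libraries and to 1969 ± 216 and 963 ± 80.1 CPM in Sox2-positive libraries. All 8 Schwann cell and glial markers were called higher in Sox2-positive cells over both batches and in batch A alone. In batch B alone 6 were tested, 4 called higher and 2 not called. The sum of the 8 was 1065 to 1387 CPM in batch A and 56.7 to 91.3 CPM in batch B Sox2-positive libraries. In Sox2-negative libraries it was 7.04 to 33.0 CPM. Skeletal muscle markers summed to 112 to 224 CPM in batch B Sox2-positive libraries. Erythroid markers of Sox2-negative libraries summed to 54880 ± 2947 CPM in batch B against 1056 ± 65.6 CPM in batch A. In bulk libraries such as these, fewer cells of a type and less RNA per cell cannot be told apart. Numbers 1 and 2 of batch B were more like each other than like the rest of their group. Their mean r of log2 CPM was 0.936 against 0.898 in Sox2-negative and 0.972 against 0.949 in Sox2-positive libraries. Results of the factors that change without these libraries are given with that value. Calls of other single genes, such as partners, signals and markers, were not checked without these libraries.

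Of the 9 factors, 8 were lower in Sox2-positive cells and 1, Lhx6, was higher, all past an adjusted p of 0.05 in edgeR's quasi-likelihood test over both batches. In that fit 57.5% of the 17190 genes tested were called, 32.5% lower and 24.9% higher. In batch A alone all 8 tested factors were called lower, where 43.4% of genes were called and 24.2% were lower. In batch B alone 8 were lower and Lhx6 higher, where 54.7% of genes were called, 27.6% lower and 27.1% higher. Summed over the 9 factors, the level in batch A was 697 ± 67.6 CPM for Sox2-negative (SD, n = 6) and 9.31 ± 3.00 CPM for Sox2-positive libraries (n = 6), and in batch B 1003 ± 32.2 CPM (n = 4) and 10.8 ± 3.80 CPM (n = 7). No Sox2-positive library overlapped any Sox2-negative library of its batch for 7 factors in both batches, and for Barx1 in batch B. Of all genes tested, 9.46% were lower without overlap in both batches, 13.4% in batch A and 18.6% in batch B.

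**Figure D1:**
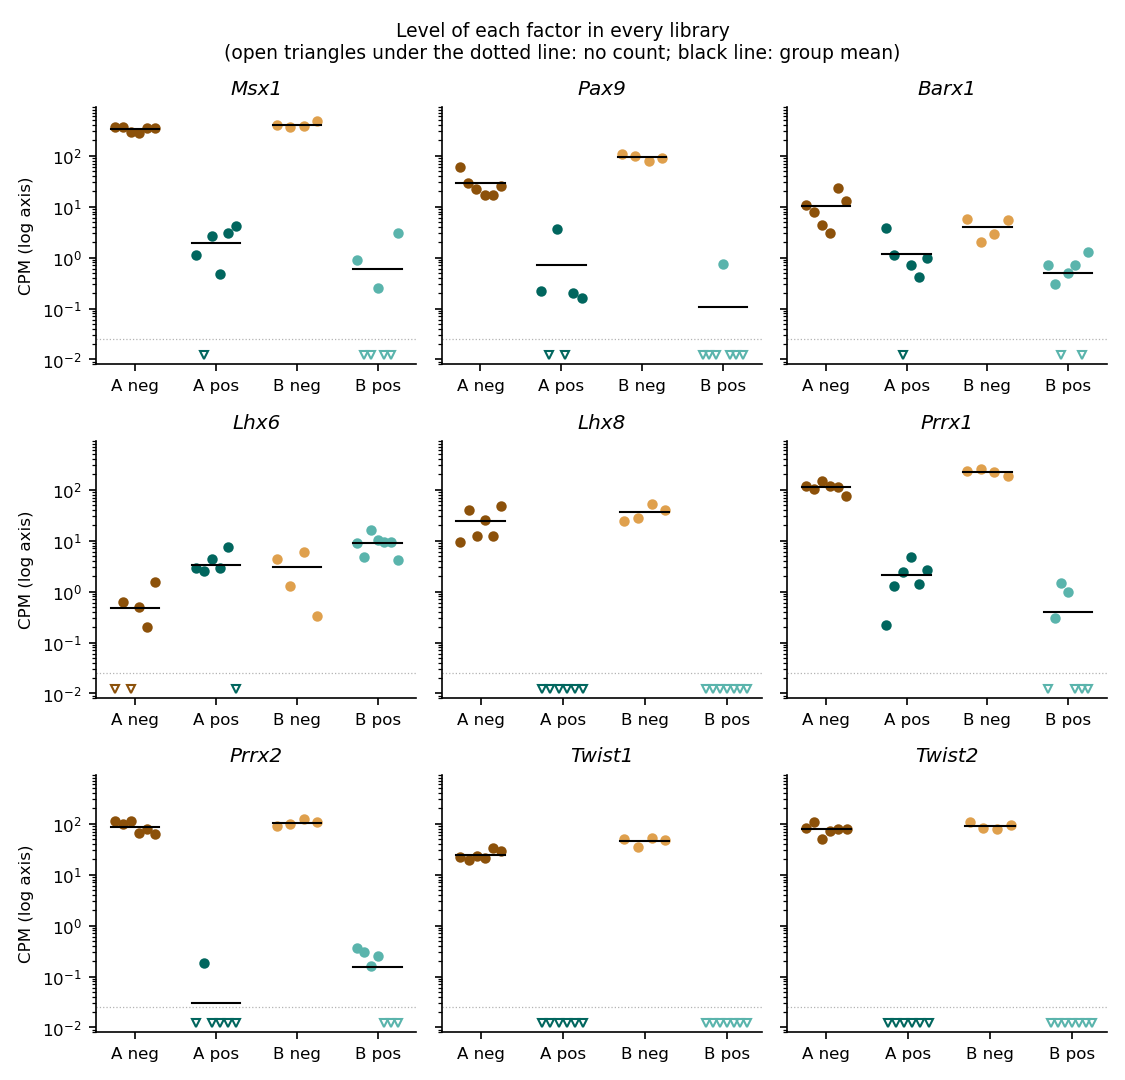
CPM of each factor (log axis) in all 23 libraries by group, A neg and A pos for batch A Sox2-negative and Sox2-positive, B neg and B pos for batch B, with a black line at the mean and open triangles for libraries with no count. For 7 factors the Sox2-negative libraries sit above the Sox2-positive ones of their batch, with Msx1 highest at 331 and 402 CPM on average, Barx1 overlaps in batch A, and Lhx6 has the higher mean in Sox2-positive cells.

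Msx1 (ENSMUSG00000048450.10, chr5:37820485-37824583, minus strand, 2 exons) was the most abundant of the 9 in Sox2-negative cells. In batch A its level ran from 276 to 363.5 CPM with a median of 350.3 in Sox2-negative libraries, and from 0 to 4.22 with a median of 1.89 in Sox2-positive libraries. In batch B the Sox2-negative libraries had 393, 358, 387 and 469.9 CPM, and the Sox2-positive libraries ran from 0 to 2.97 with a median of 0. The groups were far apart in both batches, and 1 of 6 and 4 of 7 Sox2-positive libraries had no count. The mean was 172-fold higher in Sox2-negative cells in batch A (counting interval 127 to 213) and 685-fold in batch B (593 to 1907), where 1 library carries much of the Sox2-positive mean: without replicate 7 it was 2125-fold. edgeR gave a log2 difference (Sox2-positive minus Sox2-negative) of -8.32 with a standard error (SE) of 0.42 over both batches (adjusted p 2.88e-15).

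Pax9 (ENSMUSG00000001497.18, chr12:56691767-56712822, plus strand, 5 exons) also had nearly all of its counts in the Sox2-negative libraries. In batch A these ran from 16.6 to 60.0 CPM with a median of 24.1, against 0 to 3.61 with a median of 0.183 in Sox2-positive libraries. In batch B they had 108, 100.5, 77.5 and 90.9 CPM, and of the 7 Sox2-positive libraries 1 had 3 counts (0.743 CPM) and the others none. Most of the Pax9 signal in batch A Sox2-positive cells came from replicate 3, with 19 of the group's 22 counts. The mean was 40.9-fold higher in Sox2-negative cells in batch A (counting interval 25.7 to 62.9) and 888-fold in batch B (360 to 5110, on 3 counts in 1 library). Without Sox2-positive replicate 3 the batch A ratio was 242-fold. The log2 difference over both batches was -6.98 (SE 0.65, edgeR adjusted p 8.63e-10). The 3-prime end of Pax9 overlaps Slc25a21 and its start overlaps Gm15524, both on the opposite strand, and the sources used here do not say that strand was used in quantification, so reads in the overlaps are uncertain. Slc25a21 had 9.14 CPM and Gm15524 3.23 CPM on average in batch A Sox2-negative libraries.

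Barx1 (ENSMUSG00000021381.4, chr13:48662998-48666507, plus strand, 4 exons) was low everywhere and had the smallest fall of the 8. Batch A Sox2-negative libraries ran from 2.97 to 22.7 CPM with a median of 9.33, and Sox2-positive libraries from 0 to 3.80 with a median of 0.847. In batch B the Sox2-negative libraries had 5.67, 2.00, 2.91 and 5.50 CPM and the Sox2-positive libraries 0 to 1.27 with a median of 0.495. The groups overlapped in batch A, where Sox2-positive replicate 1 lay above the lowest Sox2-negative library, and did not overlap in batch B. The mean was 8.77-fold higher in Sox2-negative cells in batch A (counting interval 6.61 to 13.9), 16.0-fold without Sox2-positive replicate 1, and 8.07-fold in batch B (5.87 to 20.2). The log2 difference was -3.18 (SE 0.59, edgeR adjusted p 5.12e-05) over both batches, and -3.18 and -3.14 in batch A and batch B alone (adjusted p 0.00507 and 0.00253).

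The LIM-homeodomain pair went in opposite directions. Lhx8 (ENSMUSG00000096225.7, chr3:154306294-154330659, minus strand, 9 exons) ran from 9.27 to 47.4 CPM with a median of 19.1 in batch A Sox2-negative libraries and had 24.5, 27.8, 51.7 and 40.0 CPM in those of batch B. It had no count in any of the 13 Sox2-positive libraries. Against a floor of 3 counts per library it was at least 40.9-fold higher in Sox2-negative cells in batch A and at least 49.3-fold in batch B. The edgeR test over both batches gave an adjusted p of 7.49e-10.

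Lhx6 (ENSMUSG00000026890.19, chr2:36081953-36105408, minus strand, 10 exons) was the only one of the 9 with a higher mean in Sox2-positive cells, and it was low in all groups. In batch A the Sox2-negative libraries ran from 0 to 1.56 CPM with a median of 0.350, at most 6 counts each, and the Sox2-positive libraries from 0 to 7.37 with a median of 2.89. In batch B the Sox2-negative libraries had 4.31, 1.29, 5.97 and 0.333 CPM and the Sox2-positive libraries ran from 4.25 to 16.1 with a median of 9.42, on 10 to 100 counts each. The groups overlapped in both batches: batch A Sox2-positive replicate 6 had no count, and 2 of 4 batch B Sox2-negative libraries lay above the lowest Sox2-positive one. The Sox2-positive mean was 696% of the Sox2-negative mean in batch A and 304% in batch B, and 1267% and 458% without Sox2-negative replicate 6 of batch A and replicate 3 of batch B. The log2 difference over both batches was 2.06 (SE 0.62, edgeR adjusted p 0.006), and it stayed called in all 31 alternatives run, with adjusted p from 6.82e-04 to 0.0342. In batch B alone it was 1.59 (SE 0.61, adjusted p 0.0359), a call that was lost in 8 of 20 alternatives, 6 of which left out a single library: Sox2-negative replicate 2 or 4 gave 1.34 and 1.23 (adjusted p 0.0954 and 0.0628), and Sox2-positive replicate 3, 4, 5 or 6 gave 1.39, 1.55, 1.57 and 1.58 (0.0768, 0.056, 0.0527 and 0.0517). Without numbers 1 and 2 of batch B it was 1.64 (adjusted p 0.142), and the contrast within the fit of all 4 groups gave 1.51 (SE 0.88, adjusted p 0.171). In batch A alone Lhx6 missed the filter on low counts; with no filter its log2 difference was 2.73 (SE 1.21, adjusted p 0.098), and the same contrast gave 2.68 (SE 0.88, adjusted p 0.0133). Its sequence is printed above beside that of Lhx8.

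Prrx1 and Prrx2 both fell. Prrx1 (ENSMUSG00000026586.16, chr1:163245119-163313710, minus strand, 3 exons) ran from 74.5 to 147.5 CPM with a median of 114 in batch A Sox2-negative libraries and from 0.224 to 4.80 with a median of 1.95 in Sox2-positive libraries. In batch B the Sox2-negative libraries had 229, 258, 223 and 183 CPM, and the Sox2-positive libraries ran from 0 to 1.45 with a median of 0. All 6 batch A Sox2-positive libraries held at least 1 count and 4 of the 7 in batch B held none. The mean was 52.5-fold higher in Sox2-negative cells in batch A (counting interval 41.5 to 69.2) and 571-fold in batch B (300.4 to 886), or 1038-fold without Sox2-positive replicate 3. The log2 difference over both batches was -7.03 (SE 0.44, edgeR adjusted p 2.39e-13). Small genes inside or across Prrx1 in the annotation (Gm20471 on the opposite strand, Gm37644 and Gm26523) had at most 2.37 CPM on average in any group where they were in the table.

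Prrx2 (ENSMUSG00000039476.13, chr2:30834972-30881251, plus strand, 4 exons) was at 62.8 to 112 CPM with a median of 87.7 in batch A Sox2-negative libraries and at 90.5, 99.3, 121 and 107.7 CPM in those of batch B. In Sox2-positive libraries it had 1 count in 1 of 6 libraries of batch A and 0 to 2 counts, at most 0.355 CPM, in those of batch B. No Sox2-positive library came near the Sox2-negative range. The ratio of means was 2855 in batch A with a counting interval of 478 to 105300, since it rests on 1 count, and 689 in batch B (261 to 1549). The log2 difference was -9.61 (SE 0.30, edgeR adjusted p 7.70e-20).

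Neither Twist gene had a count in any of the 13 Sox2-positive libraries. Twist1 (ENSMUSG00000035799.6, chr12:33957671-33959829, plus strand, 2 exons) ran from 19.3 to 33.6 CPM with a median of 22.5 in batch A Sox2-negative libraries and had 50.9, 34.2, 51.5 and 48.6 CPM in those of batch B. Twist2 (ENSMUSG00000007805.4, chr1:91801461-91848028, plus strand, 1 exon in its longest coding transcript) ran from 50.9 to 106 CPM with a median of 77.1 in batch A and had 108, 80.9, 78.0 and 93.8 CPM in batch B. Against the floor Twist1 was at least 40.9-fold higher in Sox2-negative cells in batch A and at least 63.5-fold in batch B. For Twist2 these bounds were 129-fold and 124-fold. The edgeR test over both batches gave adjusted p-values of 6.28e-12 for Twist1 and 9.13e-14 for Twist2. Gm29101, on the same strand inside an intron of Twist2, had 13.6 and 14.2 CPM in batch A and batch B Sox2-negative libraries, and Gm29100, on the opposite strand across its start, had 1.34 and 3.50 CPM.

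A level of at least 10 CPM on average in Sox2-negative libraries with no count in any Sox2-positive library was rare: 54 genes, 0.488% of those at that level, had it. Twist2, at a mean of 82.6 CPM, was the third of these by level, Twist1 at 33.3 CPM was number 18 and Lhx8 at 29.2 CPM number 21. Fgf3, a fibroblast growth factor of the tooth mesenchyme, was number 28 with 24.4 CPM. Mcpt2 at 140 CPM and Elane at 104 CPM stood above Twist2. The leukocyte marker Cd52 was number 9, and the odontoblast and osteoblast marker Mepe number 11. A lack of counts in Sox2-positive libraries was thus not particular to the factors or to mesenchyme.

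Levels of different factors were compared per kilobase (kb) of the longest coding transcript. In batch A Sox2-negative libraries Msx1 stood first with 171 ± 19.5 CPM per kb (SD, n = 6), then Prrx2 with 60.8 ± 15.4, Twist2 with 30.7 ± 7.02, Prrx1 with 17.2 ± 3.67, Twist1 with 15.1 ± 3.40, Lhx8 with 11.9 ± 7.76, Barx1 with 7.32 ± 5.12, Pax9 with 6.76 ± 3.82 and Lhx6 with 0.138. In batch B the order was Msx1 with 208 ± 24.8 (n = 4), Prrx2 with 72.6 ± 9.04, Twist2 with 35.7 ± 5.42, Prrx1 with 34.2 ± 4.76, Twist1 with 28.4 ± 5.02, Pax9 with 22.3 ± 3.08, Lhx8 with 17.3 ± 5.98, Barx1 with 2.87 ± 1.32 and Lhx6 with 0.855 ± 0.753. Msx1 and Prrx2, and Prrx2 and Twist2, did not overlap in either batch. Pax9 and Lhx6 did not overlap in batch A, nor Lhx8 and Barx1 in batch B, and all other neighbours in these orders overlapped. By its mean, Pax9 stood below Lhx8 and Barx1 in batch A and above both in batch B. Barx1 was above Pax9 in only 2 of the 6 batch A libraries, however, so that order did not hold library by library. In batch B Sox2-positive libraries Lhx6 came first, with 2.60 ± 1.13 CPM per kb (n = 7), above Barx1 with 0.356 ± 0.323 in 7 of 7 libraries and with no overlap. In batch A Sox2-positive libraries Msx1, Lhx6 and Barx1 led with 0.995, 0.962 and 0.835 CPM per kb on average and overlapped.

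**Figure D2:**
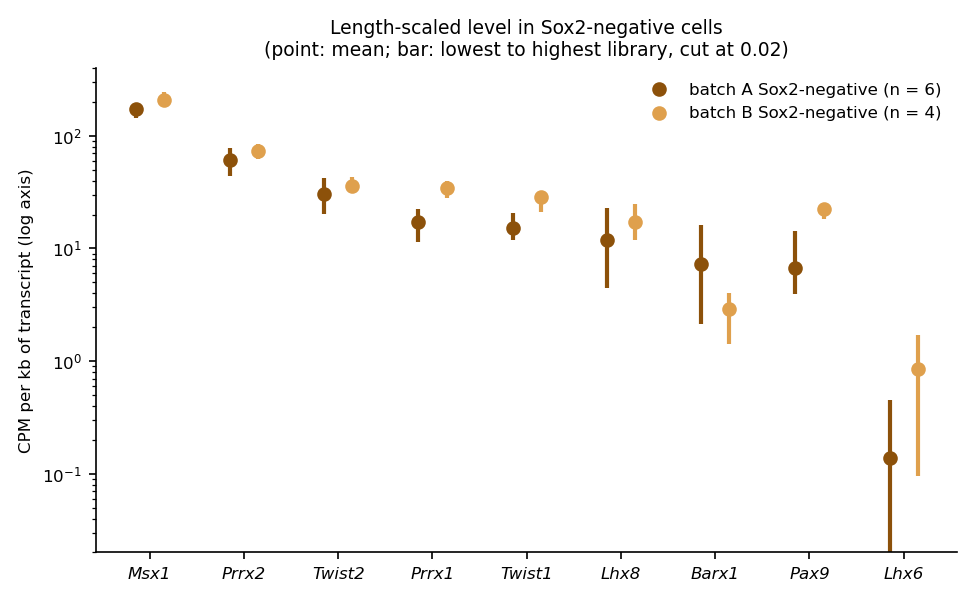
CPM per kb of transcript (log axis) in Sox2-negative libraries of batch A and batch B, with a point at the mean and a bar from the lowest to the highest library. Msx1 stands above all others in both batches, at 171 and 208 CPM per kb. By means Pax9 moves up past Lhx8 and Barx1, from 6.76 in batch A to 22.3 in batch B. Barx1 was above it in only 2 of 6 batch A libraries.

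What was left in the Sox2-positive libraries differed among the factors. Relative to the Sox2-negative mean of the same batch, Msx1 was at 0.581% in batch A and 0.146% in batch B, Pax9 at 2.45% and 0.113%, Prrx1 at 1.91% and 0.175%, and Prrx2 at 0.0350% and 0.145%. Barx1 was at 11.4% and 12.4% in the 2 batches, and Lhx8, Twist1 and Twist2 were at 0. The sum of 13 general mesenchymal markers was at 14.4% in batch A and 7.00% in batch B, above all of these factors except Barx1 in batch B. Single markers spread widely, from Dcn at 1.86% and Lum at 2.49% to Postn at 39.5% in batch A, so some lay near the shares of Pax9 and Prrx1. The collagen genes Col1a1 and Col3a1 were at 7.19% and 22.4% in batch A and at 0.638% and 0.442% in batch B. Of the 13 markers 10 had a lower share in batch B than in batch A and 3 a higher one, among them Dcn at 2.90% and Fbn1 at 33.2% and 36.0%. The part of mesenchymal cells in the residual counts was not tested.

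**Figure D3:**
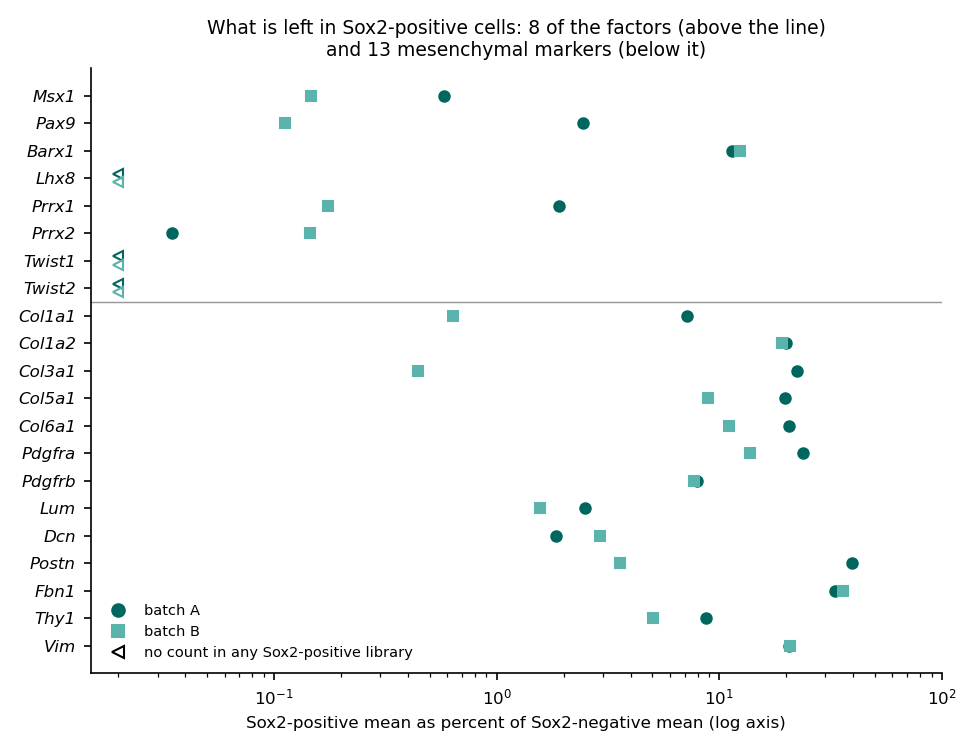
Mean in Sox2-positive libraries as a percent of the mean in Sox2-negative libraries of the same batch (log axis), for 8 factors above the line and 13 mesenchymal markers below it, with open triangles for factors with no count. The factors lie at 0 to 12.4%, and Pax9 and Prrx1 drop from 2.45% and 1.91% in batch A to 0.113% and 0.175% in batch B.

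The difference between populations was larger in batch B for 3 of the 9 factors. The interaction, which is the log2 difference in batch B minus that in batch A, was -2.52 for Msx1 (SE 0.78, edgeR adjusted p 0.0481), -4.38 for Pax9 (SE 1.2, adjusted p 0.0234) and -3.20 for Prrx1 (SE 0.67, adjusted p 0.00301). Of all genes tested, 7.04% had a called interaction, 4.22% in this direction and 2.82% in the other. The Msx1 call was lost in 25 of 31 alternatives, 19 of which left out a single library: every one of the 23 except batch A Sox2-positive replicates 2 and 4 and batch B Sox2-positive replicates 1 and 7. The Pax9 call was lost without batch A Sox2-positive replicate 3, at -2.02 (adjusted p 0.445). Without numbers 1 and 2 of batch B no factor was called, with adjusted p of 0.181 for Msx1 at -2.58, 0.224 for Pax9 and 0.0828 for Prrx1. Barx1 at 0.02 (SE 0.98), Lhx6 at -1.16 (SE 1.16) and Prrx2 at 1.55 (SE 0.80) were not called, and for Lhx8, Twist1 and Twist2 the interaction could not be estimated because neither Sox2-positive group had a count.

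The same contrast splits into the change of each population between batches. In Sox2-positive cells Prrx1 fell by 2.21 on the log2 scale from batch A to batch B (SE 0.57, edgeR adjusted p 0.0111) and Msx1 by 2.26 (SE 0.69, adjusted p 0.0343), where 10.4% of genes were called, 5.54% lower and 4.85% higher. Both changes rest on few counts, 64 for Prrx1 and 62 for Msx1 over the 6 batch A libraries, and 15 and 13 over the 7 of batch B. The Msx1 call was lost in 11 of 30 alternatives, 8 of which left out a single library (batch A Sox2-positive replicate 3, 5 or 6, or batch B Sox2-positive replicate 2, 3, 4, 5 or 6), with -1.82 to -2.18. Without numbers 1 and 2 of batch B, Prrx1 was at -1.79 (adjusted p 0.109) and Msx1 at -2.25 (adjusted p 0.129). Pax9 at -2.68 (SE 1.05), Barx1 at -1.33, Lhx6 at 1.41 and Prrx2 at 1.79 were not called, and without batch B Sox2-positive replicate 4, the library with 3 Pax9 counts, the Pax9 difference was -4.93 and passed, while without batch A Sox2-positive replicate 3 it was -0.31 (adjusted p 0.929). The Pax9 difference also passed with no filter beyond 1 count, at -2.655 (edgeR adjusted p 0.0362). In these libraries Schwann cell markers summed to 1247 ± 125 CPM for batch A (SD, n = 6) and to 78.8 ± 11.1 CPM for batch B (n = 7), all 8 of them called lower in batch B. Of 13 mesenchymal markers 5 were called lower, 1 higher and 7 were not called. Their part in the difference of Msx1 and Prrx1 was not tested.

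In Sox2-negative cells no factor passed an adjusted p of 0.05 between batches in edgeR, where 11.2% of genes did, 5.85% higher and 5.35% lower in batch B. Pax9 at 1.71 (SE 0.58, adjusted p 0.0571), Prrx1 at 0.99 (SE 0.35, adjusted p 0.068), Lhx6 at 2.58 (SE 0.92, adjusted p 0.0712) and Twist1 at 0.90 (SE 0.35, adjusted p 0.11) had an unadjusted p under 0.05. DESeq2 called 2 of the 9 factors, Lhx6 and Prrx1, and limma-voom 3, Pax9, Prrx1 and Twist1. These tools called 2658 and 3113 genes in all against 1924 in edgeR. Over the 30 alternatives run, Pax9 passed in 6, Prrx1 in 5, Lhx6 in 4 and Twist1 in 1. For Pax9, Prrx1 and Twist1 every batch B library lay above every batch A library, as for 4.74% of all genes, and for none of the 9 was the order the other way, as for 4.04%. Msx1 at 0.27 (SE 0.35), Prrx2 at 0.24 (SE 0.25) and Twist2 at 0.21 (SE 0.25), the 3 most abundant per kb, had the smallest differences. Other cell types in these libraries also differed between batches: odontoblast and osteoblast markers summed to 4676 ± 871 in batch A against 2274 ± 615 CPM in batch B, endothelial markers to 1144 ± 131 and 313 ± 55.5, leukocyte markers to 1157 ± 94.4 and 280.3 ± 41.6, and erythroid markers rose as given above. Their part in these differences was not tested.

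**Figure D4:**
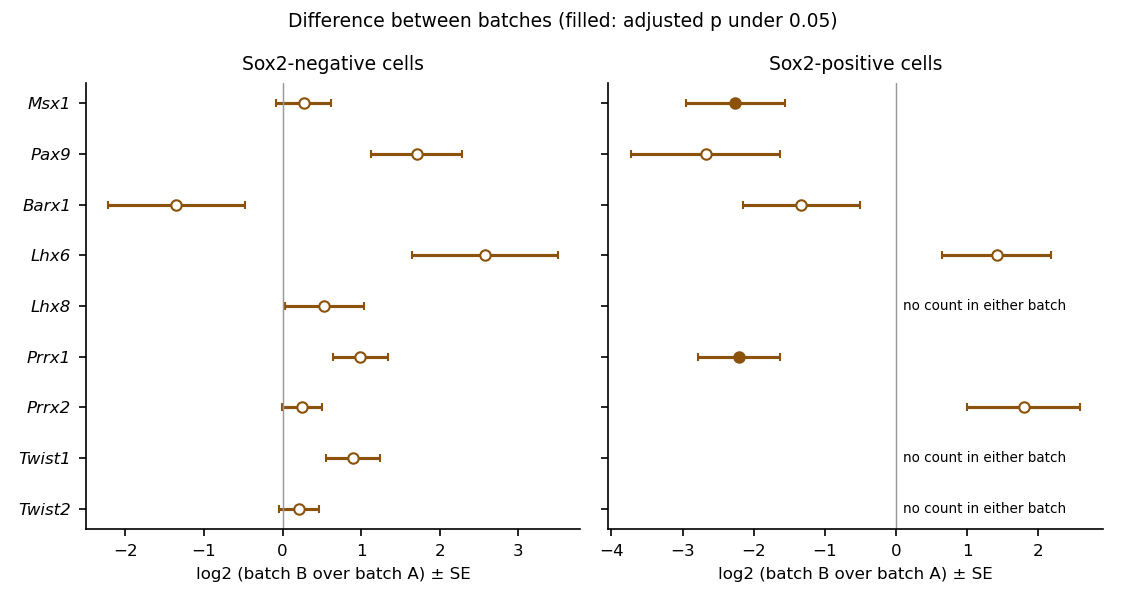
Log2 difference between batches (batch B over batch A) for each factor, with bars of 1 SE, in Sox2-negative cells and in Sox2-positive cells, filled where the edgeR adjusted p was under 0.05. In Sox2-negative cells none is filled and Pax9 stands at 1.71, and in Sox2-positive cells Msx1 and Prrx1 are filled at -2.26 and -2.21.

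Among 30 other transcription factors of jaw and neural crest mesenchyme, 28 passed the filter and 23 were called lower, 3 higher and 2 not called in the edgeR fit of both batches. The median log2 difference of the list was -4.85, against -8.32 for the 9 factors, or -6.95 with the 3 that had no Sox2-positive count at their floor bound, and -0.12 over all genes tested. The largest falls belonged to 3 forkhead genes, Foxf2 at -9.65 (SE 0.35), Foxf1 at -9.50 (SE 0.44) and Foxd1 at -9.36 (SE 0.55). In Sox2-negative libraries Foxf2 averaged 61.2 ± 8.03 and 97.7 ± 12.3 CPM in batch A and batch B, and 0.0950 and 0.0483 CPM in Sox2-positive libraries. The 3 that rose were Dlx2, Snai2 and Tfap2b. Dlx2, a distal-less homeobox gene expressed in both layers of the early tooth, was at 146 ± 18.8 and 199.5 ± 32.4 CPM in the Sox2-positive libraries of batch A and batch B, against 40.3 ± 5.55 and 86.3 ± 12.6 CPM in Sox2-negative libraries (log2 difference 1.47, SE 0.13). Snai2, a zinc-finger repressor, rose by 2.51 (SE 0.21), from 26.0 and 26.8 CPM to 153 and 166.0 CPM in batch A and batch B. Tfap2b rose by 2.86 (SE 1.02, adjusted p 0.0183) on a low level, 7.10 ± 5.88 CPM in batch A Sox2-positive libraries, and was neither called in batch A alone (adjusted p 0.114) nor past the filter in batch B alone. Its rise stands beside the higher Schwann cell markers of batch A Sox2-positive libraries, and their part in it was not tested.

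The dimer partners and inhibitors of the factors were split in direction. Of 16 such genes 15 passed the filter, 8 were called lower, 4 higher and 3 not called, with a median log2 difference of -0.43. The E protein genes were expressed in both populations. Tcf4 fell by 1.52 (SE 0.11, edgeR adjusted p 4.17e-12), from 287 ± 51.8 to 111 ± 22.3 CPM in batch A and from 254.5 ± 25.4 to 88.6 ± 14.1 CPM in batch B, and Tcf12 fell by 0.68 (SE 0.15). Tcf3 rose by 0.65 (SE 0.18, adjusted p 0.00256) over both batches, by 0.94 in batch A alone, and was at 0.39 and not called in batch B alone (adjusted p 0.267). Sox2-positive cells thus held 3 E protein transcripts at 78.8 to 212 CPM on average with no count of either Twist gene.

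The Id genes encode proteins that bind E proteins and keep them from DNA, and they split in direction. Id3 rose by 0.56 (SE 0.06), from 422 ± 18.8 to 637.5 ± 81.1 CPM in batch B (0.61 and 0.58 on the log2 scale in batch A and batch B alone), and Id4 rose by 1.72 (SE 0.20). Id1 fell by 0.39 (SE 0.10) and Id2 by 0.63 (SE 0.13) over both batches. In batch A alone neither Id1 at -0.15 nor Id2 at -0.13 was called (edgeR adjusted p 0.402 and 0.393), and in batch B alone both were, at -0.59 and -1.11 (adjusted p 8.09e-04 and 4.87e-07). For Id2 the interaction of -1.05 (SE 0.16) was called (adjusted p 8.11e-05), and for Id1 that of -0.50 was not (adjusted p 0.115).

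Ldb1 and Ldb2 encode the adaptor proteins that LIM-homeodomain factors bind. Ldb1 fell by 0.74 (SE 0.13, edgeR adjusted p 1.47e-05) and was at 59.6 ± 12.5 and 91.6 ± 14.7 CPM in batch A and batch B Sox2-positive libraries. Ldb2 fell by 1.42 (SE 0.43, edgeR adjusted p 0.00676) over both batches and was not called in batch A alone at -0.49 (adjusted p 0.134). In batch B alone it fell by 2.40 (adjusted p 0.00921). There 1 of 7 Sox2-positive libraries had no count, and 1 held 108 of the group's 154 counts. That library, at 17.4 CPM, overlapped the Sox2-negative range of 17.3 to 25.65 CPM. The largest differences of the list were those of Hand2, a helix-loop-helix factor of the jaw, and of a pair of homeobox genes, Meis1 and Meis2. Hand2 fell by 7.83 (SE 0.42), from 65.3 ± 20.1 and 109 ± 20.4 CPM to 0.615 and 0.104 CPM. Meis1 rose by 4.78 (SE 0.55), to 114 ± 21.4 and 159.6 ± 18.0 CPM in Sox2-positive libraries from 6.07 and 2.90 CPM, while Meis2 fell by 4.32 (SE 0.76) from 6.13 and 2.81 CPM to 0.382 and 0.0643 CPM and was too low to be tested in batch B alone.

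Of 20 genes for signals around the factors, 18 passed the filter, 12 were called lower, 5 higher and 1, Fgf8, was not called, with a median log2 difference of -1.45. The largest fitted falls were those of Sfrp2, a secreted Wnt modulator, at -10.24 (SE 0.35), and of the mesenchymal growth factors Fgf10, at -9.65 (SE 0.46), and Fgf3. Fgf3 averaged 23.3 ± 9.72 and 26.0 ± 7.49 CPM in the Sox2-negative libraries of batch A and batch B, with no count in Sox2-positive libraries, which makes it at least 38.6-fold and 35.6-fold higher against the floor. Fgf10 averaged 29.3 ± 20.8 and 85.1 ± 22.8 CPM, with 0.0577 and 0.0254 CPM in Sox2-positive libraries. Bmp4, named after its values were seen because Msx1 and Pax9 are known to act on it, fell by less than they did, by 3.23 (SE 0.26, edgeR adjusted p 4.02e-11). It was at 174 ± 41.2 and 192.5 ± 23.7 CPM in Sox2-negative libraries and at 35.7 ± 18.2 and 10.9 ± 2.32 CPM in Sox2-positive libraries of batch A and batch B.

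The 5 signal genes that rose were Fgf9, Shh, Fgfr1, Bmpr1a and Bmp7. The receptors Fgfr1 and Bmpr1a rose by 0.98 (SE 0.08) and 0.78 (SE 0.15), and both were called in each batch alone. The ligands Fgf9, Shh and Bmp7, at 1.97 (SE 0.57), 0.98 (SE 0.37) and 0.54 (SE 0.20) over both batches, were called in batch A alone, at 3.26, 2.49 and 1.19. In batch B alone they were at 0.72, -0.46 and -0.09 and not called (edgeR adjusted p 0.2, 0.138 and 0.722). The interaction was called for Shh, at -3.01 (SE 0.40, adjusted p 1.07e-05), and for Bmp7, at -1.34 (SE 0.29, adjusted p 0.00416), and not for Fgf9 (adjusted p 0.0979).

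**Figure D5:**
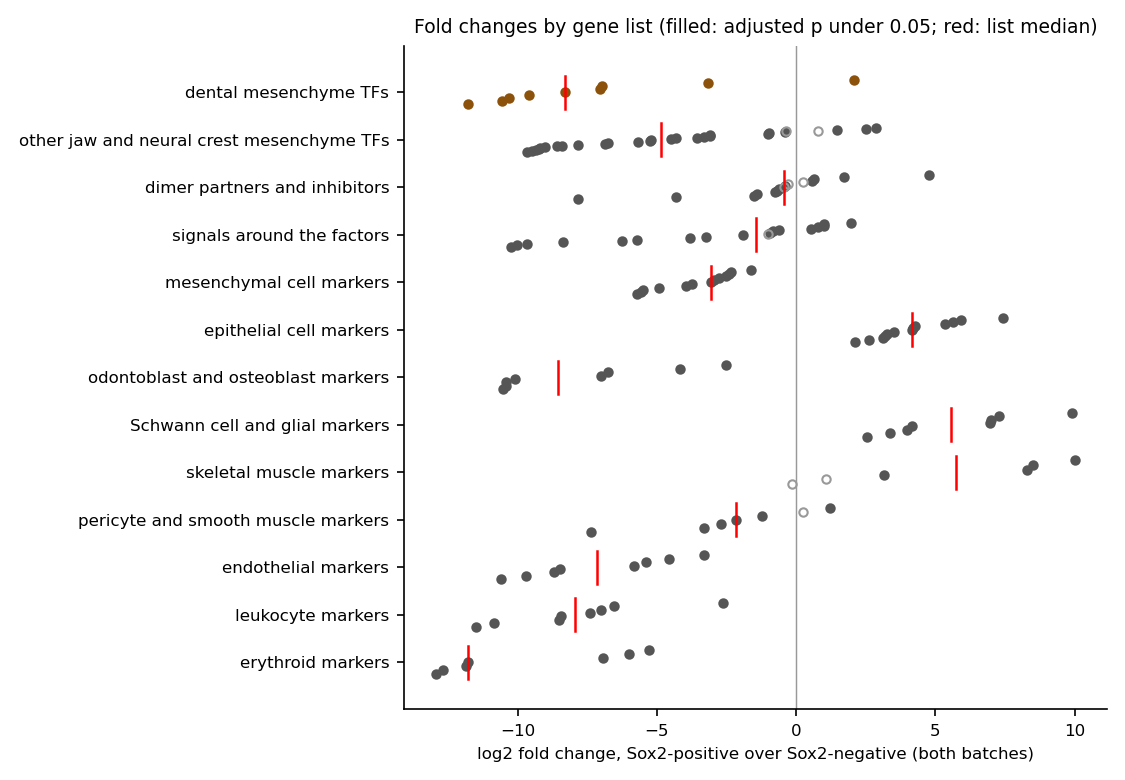
Log2 difference (Sox2-positive minus Sox2-negative, both batches) of every tested gene by list, filled where the edgeR adjusted p was under 0.05, with a red line at the list median. The 9 factors have a median of -8.32 with Lhx6 alone to the right of 0, the other jaw factors -4.85, and the dimer partners and inhibitors -0.43.

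Likeness of pattern was measured as Pearson's r of log2(CPM + 1) over the 23 libraries, among 11063 genes with a mean of at least 10 CPM in Sox2-negative libraries. The libraries of a group share their sort, batch and depth, so r is given as a description only. Prrx2, Twist1 and Twist2 were each most like, or next most like, Foxf2 (0.996, 0.996 and 0.995), together with Plac8 (0.994), Smpd3 (0.994) and Fendrr (0.996), a noncoding RNA beside Foxf1. Msx1 was most like Mmp13 (0.989) and Sfrp4 (0.985), Lhx8 was most like Osr2 (0.985), and Prrx1 most like Scarf2 (0.985) and Cthrc1 (0.983). Pax9 followed Gm34030 (0.979) and Hand2 (0.973), and Barx1 followed Olfr539 (0.919) and Cacna2d3 (0.912). Lhx6 had the lowest values, with Rcbtb2 (0.829) and Mir99ahg (0.828). Genes low in Sox2-negative and high in Sox2-positive libraries, such as Meis1 and Krt15, were not candidates under that filter. The low values of Lhx6 therefore do not show that no gene shares its pattern.

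Within the 10 Sox2-negative libraries, after the mean of each batch was taken away, r between the factors took both signs. The highest r among the 36 pairs was 0.792 for Msx1 and Barx1, then 0.737 for Barx1 and Twist1 and 0.617 for Msx1 and Twist2. The lowest was -0.727 for Lhx8 and Prrx1, then -0.595 for Msx1 and Prrx1. Among the close relatives, r was 0.501 for Prrx1 and Prrx2, 0.482 for Lhx6 and Lhx8 and -0.0292 for Twist1 and Twist2. Lhx6 had 0 to 6 counts in each batch A Sox2-negative library, so every r of Lhx6 here rests on few counts. In these libraries the genes most like each factor were others than over all 23, such as Pde4d for Msx1 (0.959), Klf7 for Barx1 (0.95), Cspg4 for Lhx8 (0.975), Snx4 for Prrx1 (0.949), Atrx for Prrx2 (0.942), Gm43540 for Twist1 (0.927), Ndfip2 for Twist2 (0.955) and Bin2 for Lhx6 (0.924). With 10 libraries and 11063 candidates, values of this size are a description of these libraries only.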

How the data were processed

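The authors deposited 1 table of estimated counts per Ensembl gene (also called expected counts), with a column per library and no scaling to depth. The submitters' processing notes name FastQC, Trimmomatic, Salmon and the build mm10, with no versions. How the authors brought transcripts to genes, the annotation and the strand setting are not given in the sources used here. Columns left unused numbered 0. No sequence of a factor protein was used here, and ATAC-seq libraries were not analysed here.

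Estimated counts were rounded to whole numbers. Symbols came from GENCODE M21 by Ensembl identifier without version (54094 of 54347 matched), and positions from the same annotation (GRCm38). Tests used edgeR 4.0.16 in R 4.3.3: TMM scaling, filterByExpr over the groups in the fit with a minimum count of 10, the quasi-likelihood F test, two-sided, with Benjamini-Hochberg adjustment over all genes tested and calls at an adjusted p under 0.05. The SE is the absolute log2 fold change over the square root of F. The comparison of populations had batch as a covariate; a fit of 4 group means gave the interaction and the differences between batches. Fitted log2 values of genes with no count in a group depend on edgeR's prior count and are no bound. Counting intervals are 95% intervals of a ratio of summed counts. Libraries of 1 group always differed beyond counting noise, with a chi-square of at least 5.19 for each degree of freedom. The scripts were tested on simulated data. Alternatives used DESeq2 1.42.0, limma 3.58.1 (voom), other scaling, other filters, a replicate block, and fits without single libraries. Single genes other than the factors were not followed through these alternatives. Ratios of means without single libraries were added after the data were seen.

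The 9 factors and the gene lists were chosen with earlier results of these data known. The text names all 9, and of each other list the 3 called genes with the largest difference, those called against the majority, and direct partners (E protein, Id and Ldb genes). For likeness it names the 2 genes with the highest r over all libraries, and 1 in Sox2-negative libraries; a few of these are not reported here. Lists not described in the report gave, over both batches, 13 of 13 epithelial markers higher, 13 of 13 mesenchymal, 8 of 8 odontoblast and osteoblast, 8 of 8 endothelial, 8 of 8 leukocyte and 7 of 7 erythroid markers lower, 4 of 6 tested muscle markers higher, and 5 of 7 tested pericyte and smooth muscle markers lower and 1 higher. The last 2 lists differed by batch. In batch A alone 1 muscle marker was tested and not called, and in batch B alone 6 of 6 were higher. Pericyte and smooth muscle markers summed to 795 CPM in Sox2-negative and 158 CPM in Sox2-positive libraries of batch A. In batch B these sums were 532 and 535 CPM.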

Additional observations from a re-analysis of the deposited data

Results flagged for a closer look

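Of 30 combinations of factor and group with spread, 7 held a library that stood far from the others of its group. Chance flags about 1 in 20 groups if their values follow a normal distribution. Groups with several libraries at 0, such as Msx1 in batch B Sox2-positive cells (4 of 7), do not follow one. That rate does not apply to a group in which 1 library alone holds counts, as for Pax9 in batch B and Prrx2 in batch A Sox2-positive cells, where it stands apart by construction. In 5 of these the library was the highest of a Sox2-positive group: Msx1 in batch B replicate 7 at 2.97 CPM, Pax9 in batch A replicate 3 at 3.61 CPM and in batch B replicate 4 at 0.743 CPM, Barx1 in batch A replicate 1 at 3.80 CPM, and Prrx2 in batch A replicate 2 at 0.184 CPM, which is 1 count. In the Sox2-negative groups Pax9 was highest in batch A replicate 1 at 60.0 CPM, and Twist1 was lowest in batch B replicate 2 at 34.2 CPM.

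The difference between populations itself differed between batches for Msx1, Pax9 and Prrx1, by an interaction of -2.52, -4.38 and -3.20 on the log2 scale in edgeR. The report gives the libraries without which the Msx1 and Pax9 calls were lost.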

How the results depend on the processing

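Calls of the 8 factors that were lower in Sox2-positive cells kept their direction and stayed past the threshold in every alternative run, 31 over both batches and 20 in each batch alone, as did Lhx6 over both batches. The differences between batches were less stable. Of the 9 factors, the interaction was called for 3, and for 1 with limma-voom, 0 with the replicate block, 0 without numbers 1 and 2 of batch B, and 1 to 3 when single libraries were left out. In Sox2-negative cells 0 were called between batches, but 2 with DESeq2, 3 with limma-voom, 2 with no filter beyond 1 count, and 0 to 1 when single libraries were left out. In Sox2-positive cells 2 were called, but 1 with DESeq2, 0 with limma-voom, 0 without numbers 1 and 2 of batch B, and 1 to 2 when single libraries were left out. With no filter beyond 1 count Pax9 was called there as well. Leaving libraries out leaves fewer samples; for the other settings the cause was not tested. The Barx1 interaction of 0.02 changed sign with DESeq2 (-0.005556), the replicate block (-0.113) and without numbers 1 and 2 of batch B (-0.0879), and ran from -0.37 to 0.87 when single libraries were left out. Over all genes the interaction was called for 1210, against 557 with the replicate block and 481 without numbers 1 and 2 of batch B. Between batches 1924 genes were called in Sox2-negative cells, against 3113 with limma-voom and 754 without numbers 1 and 2, and 1785 in Sox2-positive cells, against 1159 without them. In Sox2-negative cells 52.2% of calls were higher in batch B, 46.6% with RLE size factors and 32.3% with total-count scaling, which moved the median of all genes from -0.004 to -0.15; in Sox2-positive cells the shares were 46.7%, 45.5% and 35.4%. The labels number libraries in each group, but same-numbered libraries of the populations had correlations of -0.021 to 0.0432 in their deviations from group means, and 1 of 10 correlated best with its own number, so the replicate block was not used as a pairing; beyond the interaction it changed no call of a factor. Depth limits what can be said below the floors, 0.340 to 1.27 CPM over all libraries and 0.45 to 1.27 CPM in batch B Sox2-positive libraries. Most Sox2-positive values of Msx1, Pax9, Prrx1 and Prrx2 in batch B lay below the floor of their library.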
